A study of Mus musculus with 2 samples.

Results

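B7-family ligands are immunoglobulin-type surface proteins through which antigen-presenting cells raise or restrain the response of T cells. The 8 genes described here are Cd80, Cd86, Cd274, Pdcd1lg2, Icosl, Cd276, Vtcn1 and Cd83. They were chosen by name, with earlier results of these data known. Each matched 1 RefSeq transcript line, so they are 8 of 30794 lines and 8 of 23123 gene symbols in the deposited tables. The tables hold poly(A)-selected RNA of medullary thymic epithelial cells (mTEC) from the thymi of wild-type B6 mice, which were pooled; the cells were sorted by surface MHC class II. The MHC-II-high cells (mTEChi) gave 1 library of paired reads of 100 bases, and the MHC-II-low cells (mTEClo) gave 1 library of single reads of 50 bases, so cell group and library type cannot be told apart. No treatment, age or transgene is given in the labels, and the comparison addresses how mature, MHC-II-high mTEC differ from the MHC-II-low population.

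With 1 library a group there is no replicate check, and no test was made of any difference. Values are RPKM, which are read counts normalised to transcript length and sequencing depth, so levels can be set side by side between genes. The steps of the values imply about 115000000 reads for mTEChi and 21000000 for mTEClo, and the 95% intervals were computed from them, for counting error alone. They take reads as independent molecules, which copies made by PCR are not. Mates of a pair in mTEChi, if each was counted, are not independent either, and its intervals would then be too narrow. Changes are log2((mTEChi + 1)/(mTEClo x 1.21 + 1)), where the factor of 1.21 sets the median ratio of well-expressed genes to 0 on the log2 scale. Of the 8 mTEC markers listed, 3 were at least 2-fold higher in mTEChi and 2 at least 2-fold lower, or 3 and 1 without scaling. The largest change upward was that of Aire (2.61). The largest downward was that of Krt14 (231 RPKM in mTEChi and 566 RPKM in mTEClo, -1.57). All 8 were above 0 in both libraries, with Epcam at 198 RPKM in mTEChi and 127 RPKM in mTEClo. All 8 fibroblast and all 7 endothelial markers were above 0 in both libraries as well, so these markers do not show that either library held mTEC alone. Bulk RNA cannot separate fewer cells of a type from less RNA per cell.

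As background, Cd80 and Cd86 encode the ligands of CD28, the main costimulatory receptor of T cells, and of CTLA-4, its inhibitory counterpart. Cd274 and Pdcd1lg2 encode PD-L1 and PD-L2, the ligands of the inhibitory receptor encoded by Pdcd1. Icosl encodes the ligand of ICOS, Cd276 and Vtcn1 encode B7-H3 and B7-H4, and Cd83 encodes a related surface protein that stabilises MHC class II and CD86 on the cell surface. In the thymic medulla, CD80 and CD86 on mTEC and dendritic cells take part in the deletion of self-reactive thymocytes and in the formation of regulatory T cells.

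Upstream sequence was matched by symbol in a RefSeq table (build GRCm38.p6, later than the mm9 named in the submitters' processing notes), which held a window for 6 of the 8 genes. Those of Icosl and Cd80, which were past 2-fold between the libraries, are shown beside those of the neighbouring genes Cd274 and Pdcd1lg2, which were not. All 4 lie on the plus strand and are printed 5′ to 3′. Only the longest run outside every GENCODE exon is printed from each window of 250 bases, which for Cd274 is 47 bases. Capitals mark matches, on either strand, to the kappaB motif of NF-kB, to TGANTCA (AP-1) or to GGGCGG (GC box).
Icosl, chr10:78069118-78069301: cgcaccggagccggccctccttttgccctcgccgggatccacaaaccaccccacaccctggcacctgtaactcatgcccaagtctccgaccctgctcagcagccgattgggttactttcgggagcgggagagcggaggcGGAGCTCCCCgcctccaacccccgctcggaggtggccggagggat
Cd80, chr16:38458683-38458932: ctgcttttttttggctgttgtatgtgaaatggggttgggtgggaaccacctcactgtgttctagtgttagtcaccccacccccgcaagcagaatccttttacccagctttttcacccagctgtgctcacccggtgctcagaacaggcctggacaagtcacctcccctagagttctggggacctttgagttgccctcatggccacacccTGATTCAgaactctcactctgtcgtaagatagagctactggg
Cd274, chr19:29367391-29367437: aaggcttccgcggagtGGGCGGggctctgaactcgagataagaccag
Pdcd1lg2, chr19:29410669-29410918: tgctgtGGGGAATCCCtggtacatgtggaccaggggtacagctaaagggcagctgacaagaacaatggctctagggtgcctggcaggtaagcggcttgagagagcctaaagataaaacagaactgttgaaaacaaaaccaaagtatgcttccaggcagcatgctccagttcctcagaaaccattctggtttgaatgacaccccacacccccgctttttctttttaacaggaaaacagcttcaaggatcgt

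The kappaB match of Icosl began 111 bases before the table's start site and that of Pdcd1lg2 began 244 bases before it. Of 32851 windows of 250 bases before a start site, 7.25% held a kappaB match. The Cd80 window held an AP-1 match, found in 6.75% of windows, and lies before 1 of several annotated starts of the gene. The GC box, GGGCGG, was found in 32.7% of windows, and in those of Cd274, Icosl and Cd276. That of Icosl began 59 bases before the start, past the end of the run printed here. None of the 6 member windows held TTCNNNGAA, the STAT element, or the interferon regulatory factor element. Over all windows the shares were 7.02% for the first and 2.98% for the second element. Base composition differed between the members, with 68.8% G or C and 23 CpG in the 250 bases of Icosl, 77.6% and 29 in those of Cd276, 52.8% and 3 in those of Cd80, and 48.4% and 3 in those of Pdcd1lg2. The median window held 52.4% G or C and 6 CpG. The marked matches did not overlap each other. A match describes letters in a window and not a bound site.

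In the mTEChi library the 8 genes fell into 3 ranges of level. Icosl (64.7 RPKM), Cd274 (51.1 RPKM) and Cd80 (47.9 RPKM) stood highest, each above the level of at least 94.7% of all genes. Cd83 (14.0 RPKM), Pdcd1lg2 (10.9 RPKM) and Cd86 (10.6 RPKM) followed, and the counting intervals of Pdcd1lg2 (10.5 to 11.4 RPKM) and Cd86 (10.2 to 11.0 RPKM) overlapped. Cd276 (3.98 RPKM) and Vtcn1 (0.837 RPKM) were lowest. The other neighbours in this order did not overlap in counting error.

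The order in the mTEClo library was different. Cd274 led with 28.97 RPKM, followed by Icosl with 22.2 RPKM and Cd83 with 8.46 RPKM. Pdcd1lg2 (6.14 RPKM, interval 5.35 to 7.03 RPKM) and Cd80 (5.77 RPKM, interval 5.01 to 6.61 RPKM) overlapped, Cd276 had 3.85 RPKM, and Cd86 and Vtcn1 were listed at 0. Cd80 thus stood above Cd83 and Pdcd1lg2 in mTEChi, but below Cd83 and level with Pdcd1lg2 in mTEClo.

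**Figure D1:**
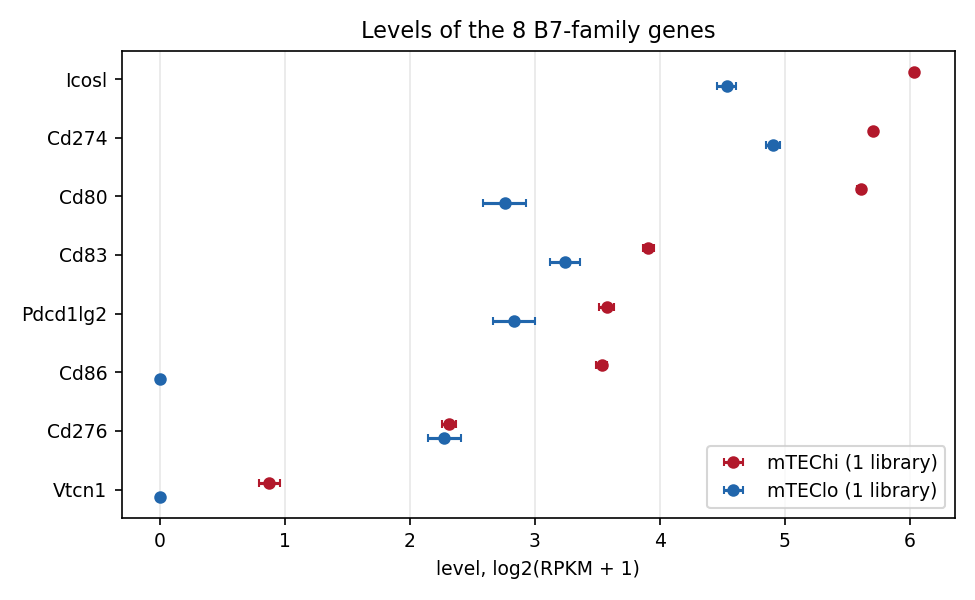
Level of each B7-family gene as log2(RPKM + 1) in the mTEChi library (red) and the mTEClo library (blue), with 95% counting intervals of 1 library each and none for values of 0. Cd80 and Cd86 show the widest gaps between the libraries, and the values of Cd276 nearly coincide. The gap of Cd86 rests on a listed value of 0 in mTEClo and measures no fold.

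Of the 8 genes, 7 passed the filter of a mean of 0.5 RPKM, Vtcn1 being the exception. Among these 7, Cd80, Cd86 and Icosl were at least 2-fold higher in mTEChi, where 16.1% of all 15590 genes that passed were, and 0 were 2-fold lower, against a background of 9.35%. Upward genes made up 63.3% of all genes past 2-fold, and 74.9% without scaling. A gene that passed the filter and is listed at 0 in mTEClo is 2-fold higher by construction, which applies to Cd86. Among genes above 0 in mTEClo, 2 of 6 members were 2-fold higher against 11.4% of 14761 genes, and 0 were 2-fold lower against 9.87%. The median change was 0.53 over the 7 members and 0.71 with Vtcn1, against 0.03 over all genes that passed and 0.04 over all genes.

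**Figure D2:**
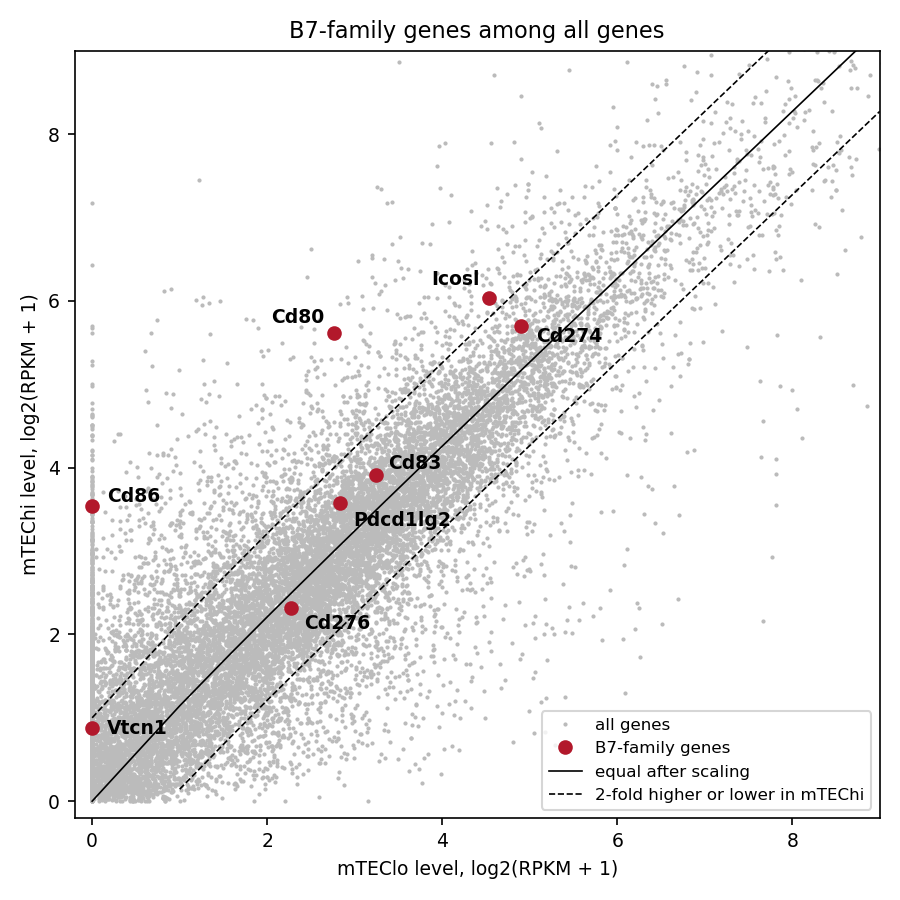
Level of every gene as log2(RPKM + 1) in mTEClo (x axis) and mTEChi (y axis), with B7-family genes in red, the line of equal scaled levels and dashed lines at a 2-fold change; genes beyond 9 on either axis are not shown. Cd80, Cd86 and Icosl lie above the upper dashed line, and Cd86 and Vtcn1 lie at 0 on the x axis.

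Cd80 had 47.9 RPKM (interval 46.9 to 48.8 RPKM) in mTEChi and 5.77 RPKM in mTEClo. Its log2 change was 2.62, larger than that of 98.0% of genes that passed the filter. Without a pseudocount the scaled ratio was 6.86-fold, with a counting interval of 5.98-fold to 7.92-fold, from about 9362 reads in mTEChi and 206 reads in mTEClo. Of the members above 0 in both libraries, Cd80 differed most between them.

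Cd86, the other ligand of CD28, was listed at 10.6 RPKM in mTEChi and at 0 in mTEClo, so no fold is given. At an equal scaled level, about 467 reads would be expected for it in mTEClo. Among 6584 genes with 200 to 1000 reads expected in this way, 60 (0.911%) were listed at 0. Rps21, which encodes a subunit of every ribosome and is named here after its values were seen, was listed at 144 RPKM in mTEChi and also at 0 in mTEClo. Whether the value of Cd86 is a true absence or a failed estimate was not tested. Within mTEChi, the level of Cd80 was 4.52 times that of Cd86 (interval 4.34 to 4.71).

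Icosl had 64.7 RPKM (interval 63.8 to 65.6 RPKM) in mTEChi and 22.2 RPKM (interval 21.0 to 23.5 RPKM) in mTEClo, a log2 change of 1.24. The scaled ratio without a pseudocount was 2.41-fold (interval 2.28-fold to 2.55-fold). On the chromosome, Icosl is separated from Aire, the regulator of tissue-restricted genes in mTEC, by 1 protein-coding gene, Dnmt3l, in the RefSeq order of genes (GRCm38.p6). Aire itself had 122 RPKM in mTEChi and 15.9 RPKM in mTEClo, a log2 change of 2.61. Icosl was therefore high in both libraries, with a smaller difference than Cd80 or Aire.

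The ligands of the Pdcd1 receptor did not reach 2-fold. Cd274 had 51.1 RPKM (interval 50.4 to 51.8 RPKM) in mTEChi and 28.97 RPKM (interval 27.8 to 30.2 RPKM) in mTEClo, a log2 change of 0.53. Pdcd1lg2 had 10.9 RPKM in mTEChi and 6.14 RPKM in mTEClo, a log2 change of 0.50. Their scaled ratios without a pseudocount were 1.46-fold (interval 1.40-fold to 1.53-fold) for Cd274 and 1.47-fold (interval 1.28-fold to 1.70-fold) for Pdcd1lg2. No other protein-coding gene lies between these neighbours in the RefSeq order. A gene on the opposite strand overlaps 14.1% of the exon bases of the Cd274 transcript in GENCODE, and reads from it cannot be told apart in a library without strand.

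Cd83 also stayed under 2-fold, with 14.0 RPKM (interval 13.6 to 14.5 RPKM) in mTEChi, 8.46 RPKM (interval 7.69 to 9.29 RPKM) in mTEClo and a log2 change of 0.42. Cd276 had 3.98 RPKM in mTEChi and 3.85 RPKM in mTEClo. Its log2 change was -0.18, and 0.04 without scaling, so its direction depends on the scaling. For Cd276, 11.5% of exon bases are overlapped by a gene on the opposite strand. Vtcn1 was listed at 0.837 RPKM in mTEChi and 0 in mTEClo, where about 38 reads would be expected at an equal scaled level. Of 2667 genes with 20 to 60 reads expected, 28.0% were listed at 0, a share that includes any genes lower in mTEClo. Over all transcript lines, 28.0% were at 0 in mTEClo and 9.14% in mTEChi. Among lines of known length, 268 in mTEClo had 1 to 3 reads beside 8281 at 0, against 675 beside 2701 in mTEChi. Why lines were listed at 0 was not tested.

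Ratios of 2 members within the same library do not depend on the scaling between libraries. The level of Cd80 was 0.936 times that of Cd274 in mTEChi (interval 0.914 to 0.959) and 0.199 times in mTEClo (interval 0.172 to 0.230). Costimulatory Cd80 was thus just below inhibitory Cd274 in mTEChi and far below it in mTEClo. The ratio of Icosl to Cd274 was 1.27 in mTEChi (interval 1.24 to 1.29) and 0.767 in mTEClo (interval 0.716 to 0.822), so the order of these 2 genes was opposite in the libraries.

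The ratio of Pdcd1lg2 to Cd274, by contrast, was 0.214 in mTEChi (interval 0.204 to 0.223) and 0.212 in mTEClo (interval 0.184 to 0.245). That of Cd83 to Cd274 was 0.275 (interval 0.265 to 0.284) and 0.292 (interval 0.263 to 0.324). For both, the counting intervals of the libraries overlapped. The ratio of Cd276 to Cd274 was 0.0779 in mTEChi (interval 0.0740 to 0.0819) and 0.133 in mTEClo (interval 0.117 to 0.150). Of the summed RPKM of the 8 genes, 204 in mTEChi and 75.4 in mTEClo, Cd80 and Cd86 held 28.6% in mTEChi and 7.65% in mTEClo. Cd80 alone held 23.5% and 7.65%, as Cd86 was listed at 0 in mTEClo. Cd274 and Pdcd1lg2 held 30.4% and 46.6%, and Icosl held 31.7% and 29.5%. The mTEClo shares take the 0 of Cd86 as given, and whether it is a true absence was not tested.

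**Figure D3:**
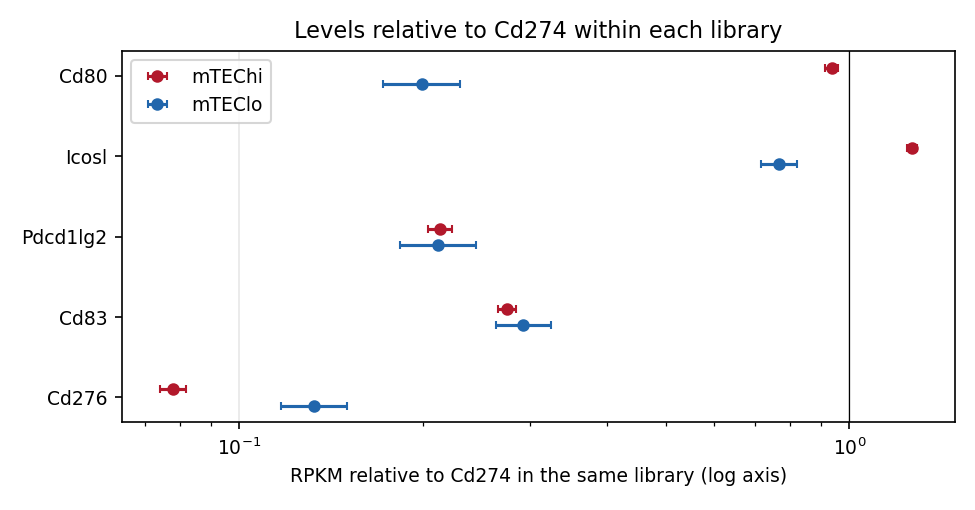
Level of 5 B7-family genes divided by that of Cd274 in the same library, on a log axis, for mTEChi (red) and mTEClo (blue), with 95% counting intervals. The ratios of Pdcd1lg2 and Cd83 overlap between the libraries, whereas that of Cd80 is 0.936 in mTEChi and 0.199 in mTEClo.

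The genes most like each member were sought among 121 genes of 15 other lists, by distance in the plane of log2(RPKM + 1) of the 2 libraries. Nearest to Cd80 were Cd40, a receptor for T cell help (61.8 RPKM in mTEChi and 6.61 RPKM in mTEClo, distance 0.40), then Cd70 (0.64) and Foxn1 (0.75). Nearest to Cd274 were Cmtm6, whose product keeps PD-L1 at the cell surface (50.04 and 28.4 RPKM, distance 0.04), then Ifngr2 (0.10) and Cd47 (0.42). Nearest to Icosl were Cmtm6 (0.50), Ifngr2 (0.56) and Nfkb2 (0.61). Nearest to Pdcd1lg2 were Batf3 (0.25), Nectin3 (0.31) and Jak2 (0.53), and nearest to Cd83 were Jak2 (0.18), Cd79b (0.57) and Batf3 (0.63). No listed gene lay close to Cd86, for which the smallest distances were those of Itgam (1.21), Btnl6 (1.27) and Cd4 (1.34). With 2 libraries this likeness is a description of 2 values per gene.

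Receptors of these ligands, most of them carried by T cells, were all at or under 11.4 RPKM. Of 6 measured genes 4 passed the filter, and 0 were past 2-fold in either direction (median change -0.17). Of all genes that passed, 16.1% were 2-fold higher and 9.35% lower. Ctla4 had 7.56 RPKM in mTEChi and 4.93 RPKM in mTEClo, and Rgmb, which encodes a binding partner of PD-L2, had 7.81 and 11.4 RPKM. Cd28 (0.391 and 0.965 RPKM) and Pdcd1 (0.763 and 0.298 RPKM) were near the filter. Icos was listed at 0.870 RPKM in mTEChi and at 0 in mTEClo.

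Butyrophilins and other B7-like genes differed among themselves. Of 13 measured genes 6 passed the filter, 3 of them 2-fold higher and 1 lower, beside 16.1% and 9.35% of all genes that passed. The median change was 1.33 over the 6, or 0.32 over all 13. The higher ones were the butyrophilin-like genes Btnl1 (19.7 RPKM in mTEChi and 2.24 RPKM in mTEClo, log2 change 2.48), Btnl6 (10.9 and 1.42 RPKM, 2.13) and Btnl2 (11.8 and 2.46 RPKM, 1.69). The lower one was Vsir, which encodes the inhibitory ligand VISTA, with 2.50 and 5.41 RPKM (-1.11). Without scaling Vsir was at -0.87 and 4 genes were 2-fold higher, so the call of Vsir rests on the scaling. Igsf11, Btnl9, Btnl10 and Mog were under 0.3 RPKM in mTEChi and listed at 0 in mTEClo.

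TNF-family costimulatory genes were mostly higher in mTEChi. All 8 passed the filter, 7 were past 2-fold upward, beside 16.1% of all genes that passed, and 0 downward. The median change was 1.67. Cd40 had a log2 change of 2.80, Cd70, the ligand gene for CD27, 2.38 (32.1 and 4.43 RPKM), Tnfrsf14 1.81 (9.31 and 1.61 RPKM) and Tnfsf9, the ligand of the costimulatory receptor 4-1BB, 1.71 (43.6 and 10.5 RPKM). Tnfsf4 (1.60 RPKM) and Tnfsf18 (2.11 RPKM) were listed at 0 in mTEClo, so they are 2-fold higher by construction. Of the 6 above 0 in both libraries 5 were 2-fold higher, against 11.4% of genes above 0 in mTEClo. Of all genes that passed, 9.35% were 2-fold lower. Adhesion and other checkpoint ligands had 0 genes past 2-fold upward and 3 downward among the 10 that passed (median -0.14, and 0.11 without scaling). These were Icam2 (1.98 and 11.02 RPKM, -2.26), Cd200 (7.88 and 15.7 RPKM, -1.17) and Lgals9, which encodes galectin-9 (73.4 and 130 RPKM, -1.09). Without scaling Cd200 (-0.91) and Lgals9 (-0.82) did not reach 2-fold, and Nectin3, an adhesion gene (11.5 and 4.80 RPKM), did, at 1.11 against 0.88 with scaling, so that 1 gene was past 2-fold upward and 1 downward.

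Genes that act on B7 proteins or their transcription fall into 3 lists. Of 6 measured genes of surface turnover 5 passed the filter and 0 were past 2-fold, and without scaling 1 was, Lrba (1.02), whose product recycles CTLA-4. Marchf8, which encodes a ubiquitin ligase that removes MHC class II and CD86 from the surface, had 11.9 RPKM in mTEChi and 16.8 RPKM in mTEClo (-0.72), and Marchf1, a related ligase gene, had 0.353 RPKM and 0. In the interferon-gamma and STAT pathway, which induces PD-L1, 0 of 9 genes were past 2-fold upward and 1 downward, the receptor chain Ifngr1 (19.5 and 51.6 RPKM, -1.62). Of all genes that passed, 16.1% were 2-fold higher and 9.35% lower. The median of the interferon-gamma list was 0.05, and 0.31 without scaling. The other receptor chain, Ifngr2, had 51.8 and 31.1 RPKM (0.45). Of the 5 NF-kB subunit genes, Rel (12.5 and 3.69 RPKM, 1.31) and Nfkb2 (88.2 and 30.2 RPKM, 1.25) were at least 2-fold higher, beside 16.1% of all genes. Relb (0.52), Nfkb1 (-0.10) and Rela (-0.19) were not, and without scaling Nfkb1 (0.16) and Rela (0.07) took the other sign.

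**Figure D4:**
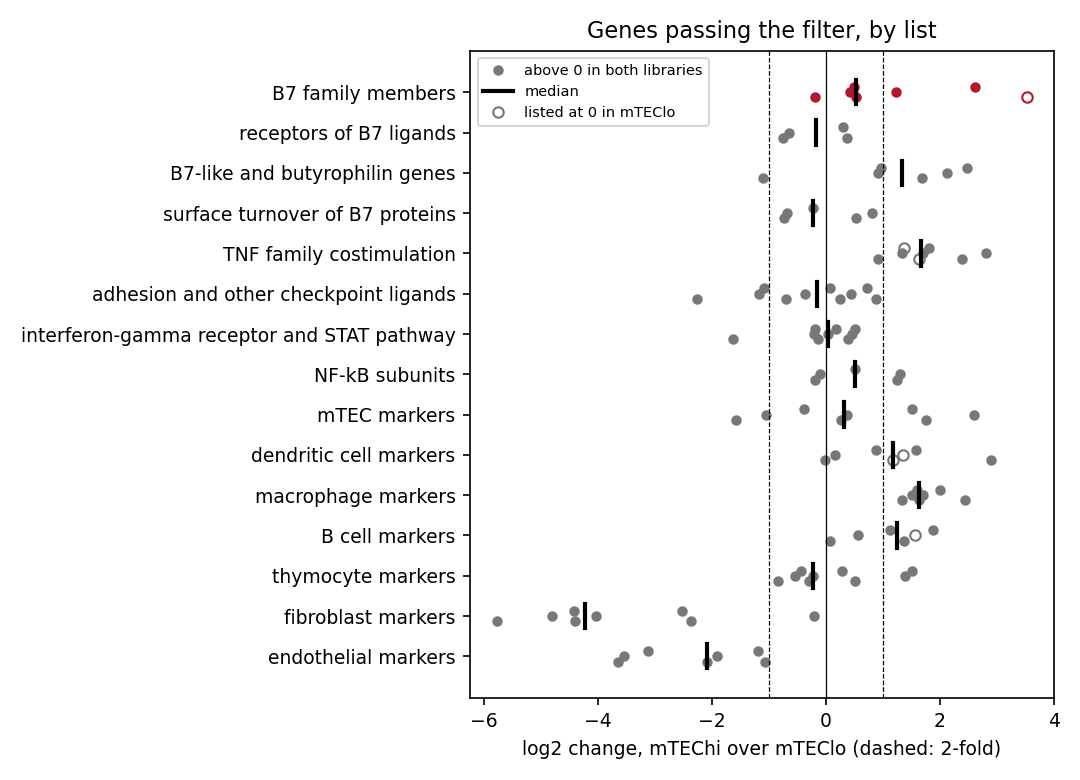
Log2 change (mTEChi over mTEClo) of each gene with a mean of 0.5 RPKM or more in the B7-family list (red) and 14 other lists (grey), with open circles for genes listed at 0 in mTEClo, black bars for list medians and dashed lines at 2-fold. The median lies at 1.67 for TNF-family costimulation, 1.64 for macrophage markers and -4.22 for fibroblast markers.

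Dendritic cells, macrophages and B cells also carry CD80, CD86, PD-L1 and CD83, and markers of these cells were also higher in mTEChi. Of 10 dendritic cell markers, 7 passed the filter, 4 were 2-fold higher in mTEChi (5 without scaling) and 0 lower. Of the 5 above 0 in both libraries 2 were 2-fold higher, while Flt3 and Cd209a, at 0 in mTEClo, are so by construction. Of all genes that passed 16.1% were 2-fold higher, and 11.4% of those above 0 in mTEClo. The sum of the dendritic cell markers was 80.7 RPKM in mTEChi and 21.6 RPKM in mTEClo. Ccr7 (39.9 and 10.4 RPKM) and Ccl17 (21.5 and 1.68 RPKM) made up most of it, whereas Flt3, Cd209a, Xcr1, Clec9a and Siglech were between 0.0976 and 1.56 RPKM in mTEChi and at 0 in mTEClo. Of 9 measured macrophage markers all 7 that passed were 2-fold higher, and the sum was 550.3 against 142 RPKM. Lyz2, named after its values were seen, held most of it (493 and 133 RPKM), with C1qb at 22.3 and 2.71 RPKM, Itgam at 5.12 and 0.726 RPKM, and Fcgr1 at 0.0807 RPKM and 0.

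Of 8 B cell markers 6 passed, 4 were 2-fold higher and 0 lower, beside 16.1% and 9.35% of all genes that passed. The sum of the B cell markers was 56.1 against 17.8 RPKM. Cd79a, at 0 in mTEClo, is 2-fold higher by construction. Of the 5 that passed above 0 in both libraries 3 were 2-fold higher, against 11.4% of genes above 0 in mTEClo. Fcer2a had 24.96 and 5.005 RPKM, Cd79a 1.98 RPKM and 0, Ms4a1 0.957 RPKM and 0, and Pax5 0.339 RPKM and 0. Ptprc, which all leukocytes express, had 1.17 RPKM in mTEChi and 0.989 RPKM in mTEClo, a log2 change of -0.02, or 0.13 without scaling. Cd80 and Cd86, at 47.9 and 10.6 RPKM in mTEChi, were above Ptprc in that library. This order does not show which cells their RNA came from. The part of dendritic cells, macrophages and B cells in the changes of Cd80, Cd86 and Icosl was not tested.

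Other cell types moved the other way or not together. Fibroblast markers had 7 of 8 genes 2-fold lower in mTEChi, with a sum of 37.9 against 698 RPKM, and endothelial markers had 7 of 7 lower, with a sum of 15.2 against 118 RPKM. Of all genes that passed, 9.35% were 2-fold lower. Without scaling 5 of the 7 endothelial markers were past 2-fold downward. Stromal and endothelial cells can also carry PD-L1 and B7-H3, and their part in the values of Cd274 and Cd276 was not tested. Thymocyte markers had 2 of 9 genes that passed 2-fold higher and 0 lower, beside 16.1% and 9.35% of all genes that passed. The thymocyte sum was 20.4 against 14.8 RPKM, with Rag2 at 0 in mTEClo.

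The place of each member relative to 2-fold was the same under the other pseudocounts, scalings, filters on low values and ways of combining transcript lines, wherever the member passed the filter. Cd80 ranged from 2.14 to 2.85, Icosl from 1.13 to 1.50, Cd274 from 0.49 to 0.80, Pdcd1lg2 from 0.36 to 0.74 and Cd83 from 0.32 to 0.67. The value of Cd86 depends on the pseudocount, from 1.64 with 5 RPKM to 6.74 with 0.1 RPKM, as its mTEClo value is 0, and measures no fold.

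**Figure D5:**
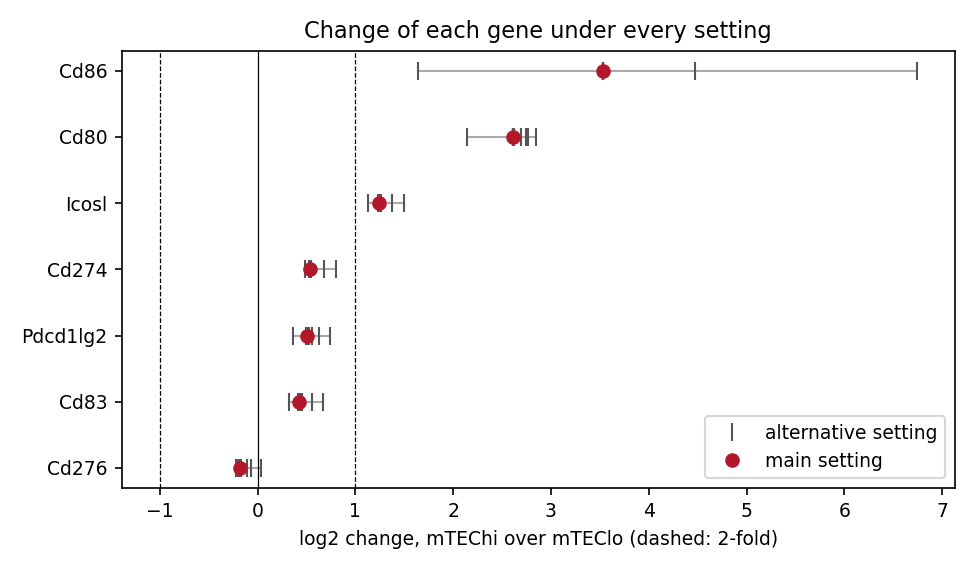
Log2 change (mTEChi over mTEClo) of the 7 members that passed the filter under the main setting (red) and each alternative (black ticks), with dashed lines at 2-fold. Cd80, Cd86 and Icosl stay above 1, and Cd276 lies between -0.22 and 0.04, on both sides of 0.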

How the data were processed

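The authors deposited RPKM values for each library, 1 for each RefSeq transcript. Tools named without roles, per the submitters' processing notes, are Bowtie 1.0.0, CASAVA and bedtools, with the mm9 build. The kit does not keep strand, per the labels' protocols. For the counting of shared reads, the sources used here give no method.

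Accessions were matched to symbols with RefSeq and GENCODE tables, and 398 unnamed lines were left out. A gene's value is its line with the highest mean, and every B7-family gene has 1 line. The scaling used the 5167 genes that averaged at least 10 RPKM. Read totals came from the steps of RPKM times GENCODE transcript length. Of transcripts with 1 to 10 reads, 77.2% of 1638 in mTEChi and 65.8% of 1058 in mTEClo lay within 0.1 of a whole read. Intervals are exact Poisson for levels and exact Clopper-Pearson for ratios.

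The members and lists were chosen with earlier results of these data known. Apart from nearest genes, the text names from each other list up to 4 genes with the largest change and those at 0 in 1 library, plus lists of 5 or fewer whole; Epcam and Lyz2 were chosen after their values were seen. Cd68, a macrophage marker, was not analysed here. Simulated data with known changes, and with counting error as the only noise, were used to test the calculation. They held no extra zeros and no difference in read type, so they do not bear on those limits. The software was matplotlib 3.10.9, scipy 1.17.1, pandas 2.3.3 and numpy 2.4.6 under Python 3.11.15.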

Additional observations from a re-analysis of the deposited data

How the results depend on the processing

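Under the main setting, 3 of the 7 members that passed the filter were at least 2-fold higher and 0 at least 2-fold lower. Over all 15590 genes that passed, the shares were 16.1% and 9.35%. The counts of 3 and 0 were the same under each alternative listed here, of 8 members with no filter and 6 at 5 RPKM. These alternatives were pseudocounts of 0.1, 0.5 and 5 RPKM, no scaling, the same RPKM sum and the same upper quartile. They also included no filter, filters at 1 and 5 RPKM, and the mean or sum of transcript lines. Leaving out genes at 0 in mTEClo was an alternative added after the data were seen. It gave 2 higher members of 6, against 11.4% of 14761 genes. Over all genes, 2508 higher and 1457 lower became 877 and 648 with a pseudocount of 5 RPKM, and 1010 and 822 with a filter at 5 RPKM, which leaves 8325 genes. Of the genes past 2-fold, 63.3% were higher, against 74.9% without scaling. No scaling moves well-expressed genes up by 0.27 on the log2 scale. No paired analysis was possible because each group has 1 library. Zeros and few reads in mTEClo limit what can be said of Cd86 and Vtcn1.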
